A study of Mus musculus with 6 samples.

Results

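Nucleolar ribosome biogenesis genes encode the proteins that transcribe, modify, cut and assemble ribosomal RNA before ribosomal subunits leave the nucleus. The 35 genes described here were chosen by name for their role and not by a measured value, though earlier results of these data were known. All 35 were found among the 46959 rows of the expression table. RNA was sequenced from haematopoietic stem cells (HSCs), sorted from bone marrow as lineage-negative, Sca-1+, c-kit+, CD150+ and CD48- cells, of mice in 2 groups of 3 libraries. The age was 8 weeks by the series' design text, whereas the methods give a wider span of young adult ages. MaeaCsf1r-Cre mice carried floxed Maea alleles and the Csf1r-iCre transgene, and the controls were littermates whose alleles the labels do not give. Since Csf1r encodes the receptor for the main growth factor of macrophages, this Cre targets macrophages of the marrow as well as HSCs. About 2000 HSCs pooled from 2 mice went into each library, so the n of 3 counts pools and not single mice.

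MAEA is a subunit of an E3 ubiquitin ligase, an enzyme complex that marks proteins for removal, and the study asked how its loss alters HSCs. HSCs are mostly quiescent and are known for low protein synthesis, and ribosome production is one of the costly processes that a cell takes up when it leaves quiescence. In the nucleolus, RNA polymerase I copies the ribosomal DNA into 1 long precursor RNA. Small nucleolar RNAs (snoRNAs) then guide protein complexes, the snoRNPs, to the bases that are to be methylated (box C/D class) or turned into pseudouridine (box H/ACA class). Separate sets of assembly factors fold and cleave the precursor into the RNAs of the small and the large subunit.

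The snoRNA genes themselves sit mainly in the introns of other genes, and several members are such hosts. In the GENCODE M21 annotation of GRCm38 (mm10, the build of the files) 19 snoRNA genes lay in introns of 6 members, namely Nop56, Nop58, Dkc1, Wdr43, Gnl3 and Ncl. The 6 sequences below are shown because they are made from the same primary transcripts as the mRNAs measured here. They were read from the GENCODE transcripts, 5′ to 3′ on the strand of the host gene, and capitals mark box C (searched as NGATGA near the start) and box D (CTGA near the end). Snord110 and Snord57 lie in Nop56 introns at chr2:130275506-130275573 and chr2:130278016-130278087 (plus strand), Snord11 in Nop58 at chr1:59704790-59704873 (plus), Snord92 in Wdr43 at chr17:71631281-71631365 (plus), Snord69 in Gnl3 at chr14:31014287-31014366 (minus) and Snord82 in Ncl at chr1:86356261-86356330 (minus).
Snord110: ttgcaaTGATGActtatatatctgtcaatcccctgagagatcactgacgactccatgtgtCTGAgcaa
Snord57: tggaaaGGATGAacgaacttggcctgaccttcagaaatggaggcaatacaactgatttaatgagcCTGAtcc
Snord11: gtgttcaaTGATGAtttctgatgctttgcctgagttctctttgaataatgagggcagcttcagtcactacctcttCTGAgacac
Snord92: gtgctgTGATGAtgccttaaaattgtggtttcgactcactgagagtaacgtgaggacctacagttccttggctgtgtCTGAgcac
Snord69: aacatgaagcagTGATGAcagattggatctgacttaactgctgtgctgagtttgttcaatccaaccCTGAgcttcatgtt
Snord82: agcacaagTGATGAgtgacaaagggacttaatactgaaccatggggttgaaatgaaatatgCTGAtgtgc
Of the 19 snoRNA genes, 16 were listed at 0 in every library and the largest value of any was 0.113 CPM, that is, reads per 1000000 reads. The libraries were primed on poly(A) tails and snoRNAs are short RNAs without one, so these zeros carry no information on snoRNA levels in the cells.

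Promoters were examined because nucleolar genes are a well known target programme of the MYC family of transcription factors, which bind the E-box CACGTG. RefSeq windows of 250 bases before to 50 bases after the start (GRCm38.p6) were held for 29 of the 35 members. The E-box was found in 6 of them (20.7%), Rrn3, Utp20, Wdr43, Pes1, Nop2 and Mybbp1a, against 10.5% of 9118 windows of all genes tested. The palindrome reads the same on both strands. The sequence CCGGAAG, the core of ETS factor sites, searched on both strands, was found in 8 of 29 members (27.6%) and in 19.3% of the windows of all genes tested. Of the other 2 motifs searched on both strands, CCAAT was found in 31.0% of members and 38.9% of all genes tested, and the YY1 core AAGATGGC in 0 of 29 and 5.0%. Windows were also held for 88 further genes of the pathway, described below. Of these, 18.2% held the E-box, 51.1% CCGGAAG, 37.5% CCAAT and 5.7% AAGATGGC. A match describes letters in a window and does not show that a factor was bound. The windows of Rrn3, which recruits RNA polymerase I to its promoter and held 2 E-boxes, and of Nop2, a large subunit rRNA methyltransferase, are given with the E-boxes in capitals; they span chr16:13780449-13780748 and chr6:125131633-125131932, both on the plus strand.
Rrn3: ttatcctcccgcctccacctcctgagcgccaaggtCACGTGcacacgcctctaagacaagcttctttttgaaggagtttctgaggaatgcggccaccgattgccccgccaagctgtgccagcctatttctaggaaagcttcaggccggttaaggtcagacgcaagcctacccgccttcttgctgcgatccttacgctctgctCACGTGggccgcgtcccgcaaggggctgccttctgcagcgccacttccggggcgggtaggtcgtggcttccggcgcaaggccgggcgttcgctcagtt
Nop2: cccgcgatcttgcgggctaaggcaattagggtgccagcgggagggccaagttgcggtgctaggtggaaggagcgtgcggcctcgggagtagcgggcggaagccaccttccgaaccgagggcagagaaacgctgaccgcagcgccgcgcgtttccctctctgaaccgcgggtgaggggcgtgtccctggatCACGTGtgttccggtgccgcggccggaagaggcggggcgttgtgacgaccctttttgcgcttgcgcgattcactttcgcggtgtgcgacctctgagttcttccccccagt

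In the targeted gene Maea, the level was 108.4, 115.9 and 122.98 CPM in the controls and 76.9, 88.6 and 101 CPM in the MaeaCsf1r-Cre libraries. The groups did not overlap, and the log2 fold change was -0.39 ± 0.13 (SE, n = 3 against 3; limma adjusted p = 0.967). The value sums over all exons of the gene, including any left after deletion. The reads behind the scaling to CPM were inferred from the commonest low value of each library. They came to about 32967000 to 39613000 in the controls and 44158000 to 60938000 in the MaeaCsf1r-Cre libraries, of which MaeaCsf1r-Cre replicate 1 was the deepest. By this estimate the fewest reads behind any member's value were 665 (Noc3l, MaeaCsf1r-Cre replicate 2, 15.1 CPM). The counting error of 3.88% covers the counting of reads alone and was small beside the differences between libraries described below. HSC markers were present in every library, with Kit between 393 and 700 CPM, Hlf between 41.5 and 203 CPM and Procr between 7.61 and 39.3 CPM. These 3 were lowest in MaeaCsf1r-Cre replicate 1, as were 8 of the 10 listed HSC markers in all. Markers of other cells were present to differing extents: summed over each list and library, granulocyte markers came to 77.9 to 306 CPM, B cell markers to 13.9 to 55.4 CPM, T cell markers to 6.78 to 13.3 CPM and megakaryocyte markers to 296 to 1341 CPM. In these lists, 5 of 10 granulocyte, 2 of 10 B cell, 1 of 8 T cell and 7 of 8 megakaryocyte markers reached 1 CPM in 3 or more libraries. Ms4a1, Pax5, Cd3e, Cd3g and S100a9 were at or near 0, and other genes of the lists carried the sums. The erythroid genes Car1 (617 to 3645 CPM) and Klf1 (94 to 331 CPM) were well above 0.

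No nucleolar gene passed the test between the groups. Of the 35 members, 0 were called at an adjusted p under 0.05 in limma, against 1 gene (0.00772%) of the 12955 tested, and the smallest adjusted p of a member was 0.967. None had an unadjusted p under 0.05 either, where 3.99% of all genes tested did. The groups overlapped in all 35, whereas 8.55% of all genes tested had groups that did not overlap. The estimates leaned 1 way: 34 of 35 members had a higher mean in MaeaCsf1r-Cre HSCs and Noc3l had a lower one, with a median log2 fold change of 0.10 (range -0.14 to 0.27), beside -0.06 over all genes tested, of which 5060 of 12955 were higher. The 95% intervals of the members ran from -0.60 at the lowest to 0.72 at the highest, so none reached a log2 fold change of 1 in either direction. Without MaeaCsf1r-Cre replicate 1, 12 of the 35 were higher and the median was -0.05, the same as over all genes tested. Without control replicate 2, 24 were higher and the median was 0.04, beside -0.05. Leaving out a single library breaks a same-numbered pair. With both libraries of replicate 1 left out, a setting chosen after seeing the data, 20 were higher. The median was then 0.02, beside -0.07 over all genes tested. The size of the lean thus depended on replicate 1. The blocked fit, which compares same-numbered libraries, also called 0 members (smallest adjusted p = 0.281); 2 of them, Nhp2 and Nolc1, had an unadjusted p under 0.05 there, against 13.9% of all genes tested.

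**Figure D1:**
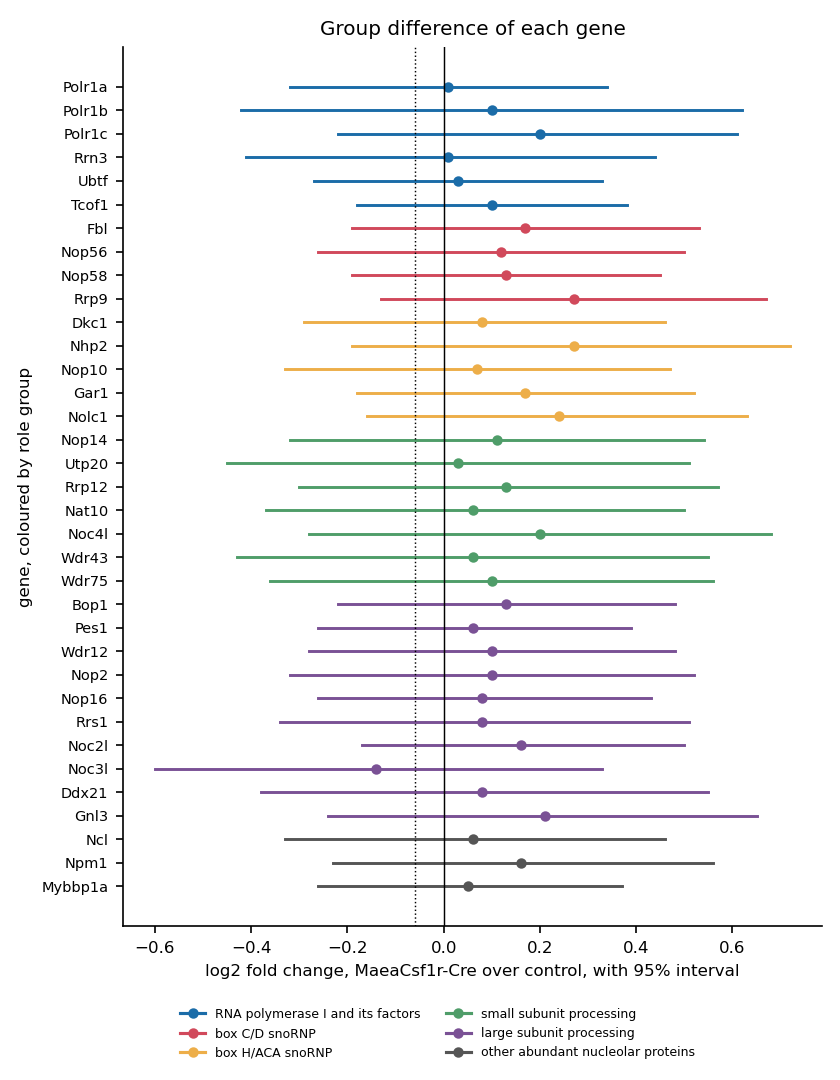
The log2 fold change of each of the 35 genes on log2(CPM + 1), MaeaCsf1r-Cre over control, is plotted as a point with its 95% interval (3 libraries per group), coloured by role group; the dotted line marks the median of all genes tested, -0.06. All 35 intervals cover 0, and 34 of the 35 points lie to its right.

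What the members shared was their highest library. In all 35, MaeaCsf1r-Cre replicate 1 was the highest library, a pattern seen in 25.4% of all genes tested, although in Tcof1 replicate 3 was level with it at 93.1 CPM. In 28 of 35, replicate 1 was the highest library in each of the 2 groups, and the lowest control was replicate 2 in 29 of 35. The summed level of the members was 4832, 3975 and 4478 CPM in control replicates 1 to 3 and 5868, 4163 and 4422 CPM in MaeaCsf1r-Cre replicates 1 to 3. Thus MaeaCsf1r-Cre replicates 2 and 3 lay inside the range of the controls, and replicate 1 lay above it. All listed rows together summed to 78.8, 76.9 and 78.2% of the CPM scale in control replicates 1 to 3. In MaeaCsf1r-Cre replicates 1 to 3 they summed to 80.2, 75.2 and 79.4%. The part of these shares in the member levels was not tested. Taking each gene's mean over the 6 libraries as 0, the median member stood at 0.36 on the log2 scale in MaeaCsf1r-Cre replicate 1, at 0.08 in control replicate 1 and between -0.19 and -0.04 in the other 4 libraries. The ratio of the highest to the lowest library was 1.51 for the median member, smallest for Tcof1 (1.21) and largest for Nhp2 (1.87).

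**Figure D2:**
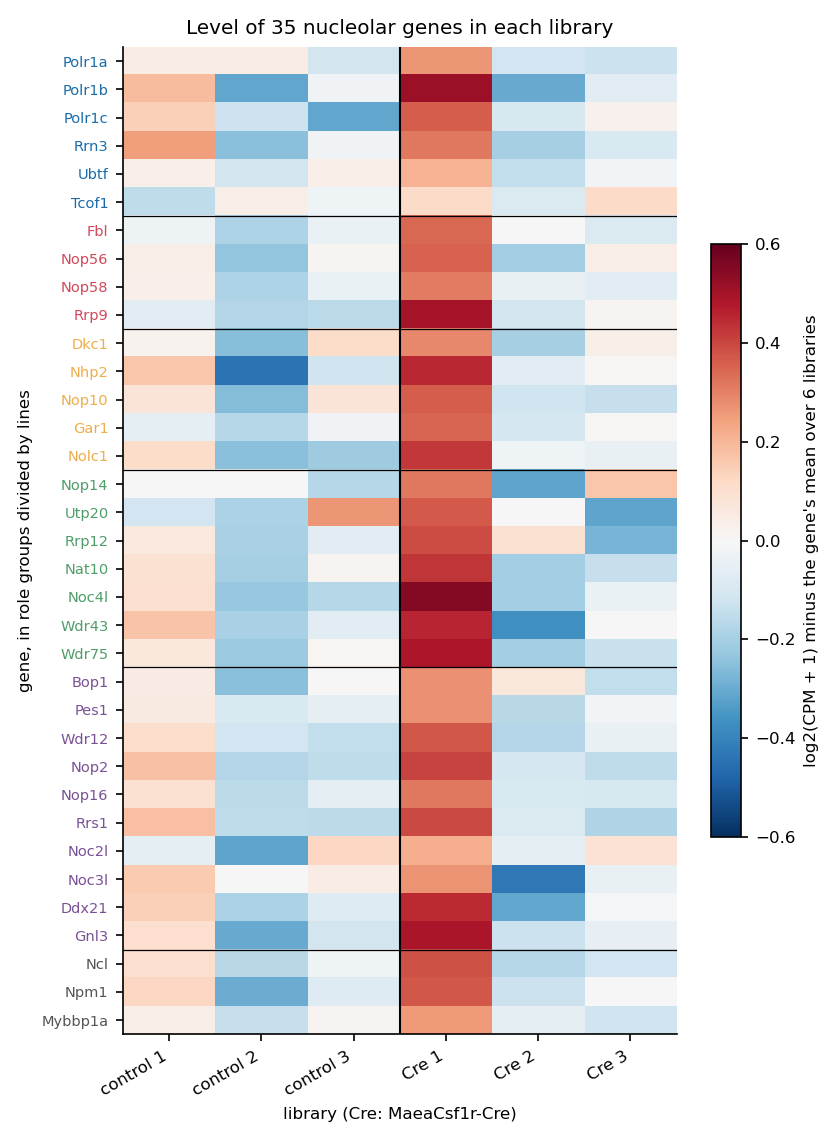
Each row is a gene, in role groups divided by lines, and each column a library; colour gives log2(CPM + 1) minus that gene's mean over the 6 libraries, from blue (lower) to red (higher). The column of MaeaCsf1r-Cre replicate 1 is the highest in all 35 rows (in Tcof1 level with replicate 3), and control replicate 2 is the lowest library in 20 of them.

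Libraries with the same number deviated together, and the comparison was therefore also made within the numbers. In replicate 1, all 35 members were higher in MaeaCsf1r-Cre than in the control, with a median log2 difference of 0.28. In replicate 2, 24 of 35 were higher with a median of 0.06, and in replicate 3, 16 of 35 with a median of -0.02. Over all genes tested the medians were -0.03, -0.14 and 0.01. In all 3 pairs, 10 of the 35 were higher, where 13.2% of all genes tested were, namely Polr1c, Nop56, Rrp9, Nhp2, Gar1, Nolc1, Noc4l, Nop2, Gnl3 and Npm1. No member was lower in all 3 pairs, where 23.5% of all genes tested were. Split into parts, 73.0% of a median member's sum of squares over the 6 libraries lay between replicate numbers (2 degrees of freedom) and 7.19% between genotypes (1 degree of freedom), beside 58.8% and 12.8% for the median of all genes tested.

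**Figure D3:**
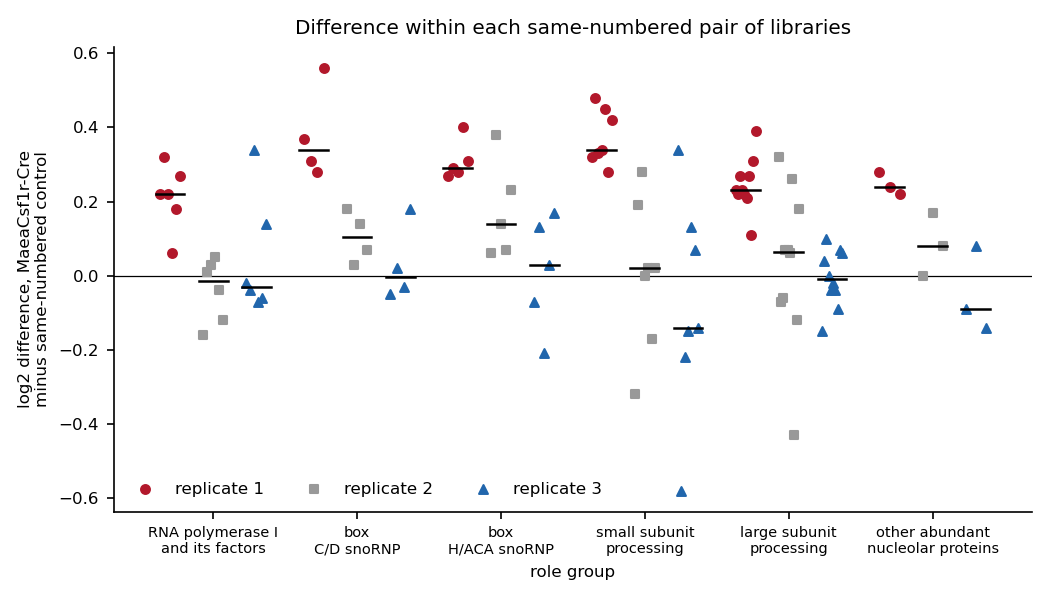
Each point is a gene's log2 difference, MaeaCsf1r-Cre minus the control library of the same number, by role group, with circles for replicate 1, squares for replicate 2 and triangles for replicate 3; bars are medians of the group. All 35 circles lie above 0, and the triangles lie on either side of it.

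RNA polymerase I and its factors had a median log2 fold change of 0.06 over 6 genes (0.01 to 0.20). Polr1a and Polr1b, the largest subunits of the enzyme, had group means of 74.6 and 75.8 CPM and of 87.3 and 95.3 CPM, control first. Polr1c, a subunit shared with RNA polymerase III, had means of 37.3 and 43.0 CPM. Rrn3, the factor that makes the polymerase competent to initiate, had means of 69.7 and 70.5 CPM. Its libraries followed the replicate number more than any other member's: 97.9% of its sum of squares lay between the numbers. Ubtf, which binds along the ribosomal DNA and keeps it open, was the gene of this group with the highest level per kilobase of transcript, at 47.5 CPM per kb in controls and 48.6 in MaeaCsf1r-Cre. Its level was 143, 130 and 145 CPM in the controls and 163, 127 and 139 CPM in the MaeaCsf1r-Cre libraries (log2 fold change 0.03 ± 0.13, SE; adjusted p = 0.984). The range of the controls lay wholly inside that of the MaeaCsf1r-Cre libraries. Tcof1, the treacle protein that works with Ubtf, had means of 83.1 and 89.0 CPM and was the member least tied to the replicate number (10.03% of its sum of squares).

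Among the box C/D proteins, all 4 means were higher in MaeaCsf1r-Cre, with a median log2 fold change of 0.15 and with control replicate 2 the lowest library in 4 of 4. Fbl, the methyltransferase of the complex, had means of 38.1 ± 2.35 CPM in controls and 43.3 ± 7.26 CPM in MaeaCsf1r-Cre (SD, n = 3). Nop58, a core scaffold protein and host of Snord11, had means of 169 and 186 CPM. Nop56, its partner and host of Snord57 and Snord110, had the highest level of the group per kilobase (122 and 133 CPM per kb). Its level was 244, 201 and 240 CPM in the controls and 303, 205 and 244 CPM in the MaeaCsf1r-Cre libraries (log2 fold change 0.12 ± 0.16, SE; adjusted p = 0.967). Only MaeaCsf1r-Cre replicate 1 stood clearly apart, since the other 2 MaeaCsf1r-Cre libraries lay close to single controls. Rrp9, which belongs to the U3 snoRNP needed for the first cuts of the precursor, had the largest difference of all members. Its level was 51.9, 47.8 and 48.3 CPM in the controls and 76.9, 50.1 and 54.8 CPM in the MaeaCsf1r-Cre libraries. The controls were close together, MaeaCsf1r-Cre replicate 2 fell among them, and the log2 fold change was 0.27 ± 0.17 (SE; adjusted p = 0.967, and 0.393 in the blocked fit). Without MaeaCsf1r-Cre replicate 1 it was 0.09.

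The box H/ACA group, with Nolc1 counted in it, had the largest median log2 fold change of the role groups, 0.17 over 5 genes (0.07 to 0.27). That of box C/D was close to it at 0.15, and the standard errors of the 5 genes were 0.15 to 0.20. Dkc1, Nhp2, Nop10 and Gar1, the core proteins of the complex, also form part of telomerase. Dkc1, the pseudouridine synthase, had means of 199 and 212 CPM. Nop10, a small core protein, had the highest level per kilobase (162 and 171 CPM per kb). Its level was 193, 152 and 193 CPM in the controls and 235, 168 and 166 CPM in the MaeaCsf1r-Cre libraries (log2 fold change 0.07 ± 0.17, SE; adjusted p = 0.976). Here MaeaCsf1r-Cre replicates 2 and 3 were below 2 of the 3 controls. Nhp2, which binds the H/ACA RNA, had 171, 112 and 140 CPM in the controls and 209, 145 and 153 CPM in the MaeaCsf1r-Cre libraries. It was higher in each same-numbered pair, by 0.29, 0.38 and 0.13 on the log2 scale, yet the groups overlapped, and the log2 fold change was 0.27 ± 0.20 (SE; adjusted p = 0.967, and 0.281 in the blocked fit). Nolc1, a chaperone that carries snoRNPs between nucleolus and Cajal bodies, had 128, 99.0 and 102 CPM in the controls and 159, 116 and 114 CPM in the MaeaCsf1r-Cre libraries. Its pair differences were 0.31, 0.23 and 0.17, and its log2 fold change was 0.24 ± 0.17 (SE; adjusted p = 0.967, and 0.309 in the blocked fit). Nhp2 and Nolc1 were singled out after their values were seen. Gar1 had means of 50.05 and 56.8 CPM.

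The small subunit processing factors had a median log2 fold change of 0.10 over 7 genes (0.03 to 0.20) and the most uneven pairs: their median difference was 0.34 in replicate 1, 0.02 in replicate 2 and -0.14 in replicate 3. Wdr43, a part of the early UTP complex and host of Snord92, had the highest level per kilobase (44.9 and 47.8 CPM per kb). Its level was 177, 138 and 150 CPM in the controls and 216, 122 and 157 CPM in the MaeaCsf1r-Cre libraries, which thus held both its highest and its lowest value (log2 fold change 0.06 ± 0.21, SE; adjusted p = 0.981). Utp20, a very large scaffold protein, went furthest in opposite directions, with differences of 0.48 in replicate 1 and -0.58 in replicate 3, and its means were 48.5 and 49.97 CPM. Noc4l, a partner of Nop14 in small subunit assembly, was higher in all 3 pairs, and its means were 78.6 ± 9.84 and 92.5 ± 27.1 CPM (SD, n = 3). Nop14 itself had means of 36.8 and 40.5 CPM with differences of 0.32, -0.32 and 0.34 in the pairs. The means of Nat10, the RNA cytidine acetyltransferase, were 71.2 and 75.6 CPM. Those of Wdr75 were 53.4 and 58.5 CPM and those of Rrp12, which takes part in subunit export, 39.1 and 43.6 CPM.

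The large subunit group held 10 genes, with a median log2 fold change of 0.09 (-0.14 to 0.21). Pes1, Bop1 and Wdr12 form 1 complex, PeBoW, that is needed to process the large subunit RNAs. Their means were 126 and 133 CPM for Pes1, 84.1 and 92.5 CPM for Bop1, and 118 and 128 CPM for Wdr12, control first, and their log2 fold changes were 0.06, 0.13 and 0.10. The 3 partners thus did not separate from each other beyond their standard errors of 0.14 to 0.17. Noc2l, which pairs with Noc3l in pre-60S particles, had the highest level per kilobase of the group (70.2 and 78.4 CPM per kb). Its level was 198, 165 and 224 CPM in the controls and 239, 197 and 218 CPM in the MaeaCsf1r-Cre libraries (log2 fold change 0.16 ± 0.15, SE; adjusted p = 0.967). Without control replicate 2 it was 0.05, and without MaeaCsf1r-Cre replicate 1 it was 0.10. Noc3l was the least abundant member, 23.1, 20.7 and 21.3 CPM in the controls and 25.1, 15.1 and 20.01 CPM in the MaeaCsf1r-Cre libraries, and the only one with a lower mean there. Its log2 fold change of -0.14 ± 0.20 (SE; adjusted p = 0.967) combined pair differences of 0.11, -0.43 and -0.09. Without MaeaCsf1r-Cre replicate 2 it was 0.05.

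Of the remaining large subunit factors, Gnl3 (nucleostemin, a GTPase known from stem cells) had means of 76.1 ± 10.8 and 89.2 ± 22.2 CPM (SD, n = 3) and was higher in all 3 pairs. Nop2 had means of 125 and 136 CPM, and Nop16, a small nucleolar protein, of 88.7 and 94.8 CPM. Those of Rrs1, which recruits the 5S RNP, were 68.97 and 73.9 CPM. Ddx21, an RNA helicase that also senses RNA polymerase activity, had means of 84.6 and 91.5 CPM.

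The 3 abundant nucleolar proteins were highest in MaeaCsf1r-Cre replicate 1 and next highest in control replicate 1, with a median log2 fold change of 0.06 (0.05 to 0.16). Ncl (nucleolin), an RNA-binding protein, was the most abundant member in CPM, with means of 604 ± 55.1 and 639 ± 141 CPM (SD, n = 3). Its annotated transcript of 8202 bases gave 73.6 CPM per kb in controls, a level that would be higher with a shorter transcript. Npm1 (nucleophosmin), which chaperones ribosomal proteins and histones, had the highest level of all members per kilobase, 251 and 283 CPM per kb. It had 471, 351 and 409 CPM in the controls and 558, 395 and 432 CPM in the MaeaCsf1r-Cre libraries (log2 fold change 0.16 ± 0.17, SE; adjusted p = 0.967, and 0.445 in the blocked fit). Each MaeaCsf1r-Cre library was above the control of its number, but replicates 2 and 3 lay below control replicate 1. Without MaeaCsf1r-Cre replicate 1 the log2 fold change was 0.02, and without control replicate 2 it was 0.06. Mybbp1a, a MYB-binding protein of the nucleolus, had means of 288 and 300 CPM.

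The difference between groups went with transcript length. Across the 35 members, which share the same 6 libraries, Spearman's rho between log2 fold change and the length of the annotated principal transcript was -0.62, and it was -0.30 across the 12473 tested genes with a length. The 18 members of up to 2804 bases had a median log2 fold change of 0.15, and the 17 longer ones of 0.06; 9 of the 10 members that were higher in all 3 pairs were in the shorter set, Nolc1 being the exception. Within pairs the rho of the members was -0.12, -0.42 and -0.30. After a loess curve of all genes on length was subtracted, the median of the members was 0.21 and that of all genes 0.03. All 35 members were above 0, which is the curve itself and lies below the median gene. Against the medians of all genes in bins of length, 34 were above. The part of RNA quality or library preparation in this trend was not tested.

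**Figure D4:**
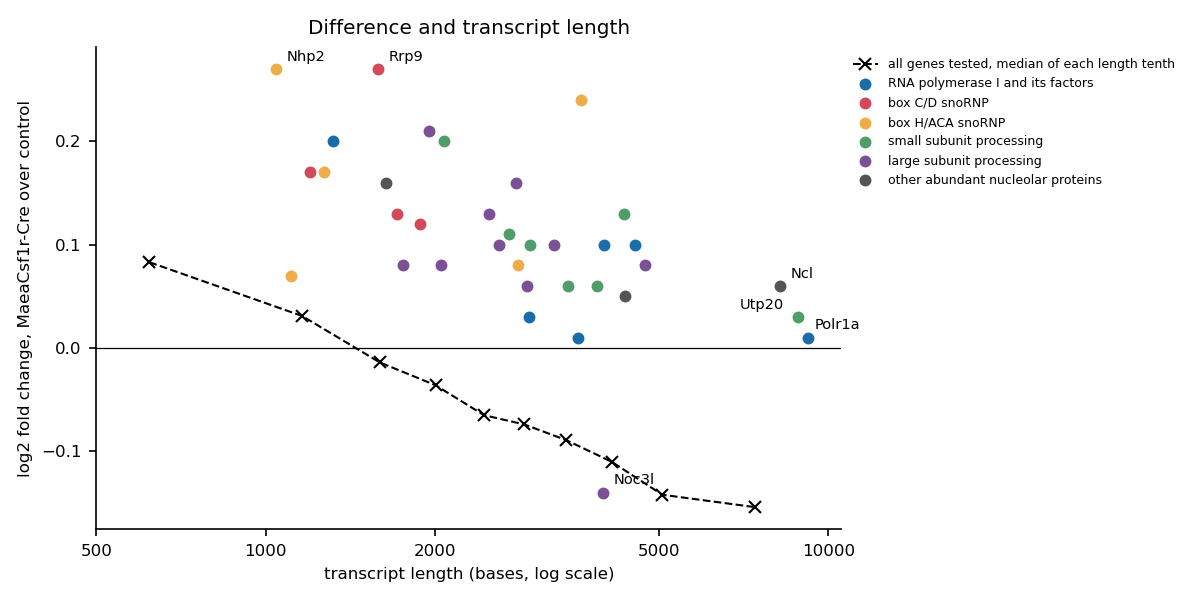
The log2 fold change of each gene, MaeaCsf1r-Cre over control, is plotted against its transcript length on a log axis, coloured by role group; crosses joined by a dashed line are medians of all genes tested in 10 bins of length. The members fall from 0.27 for the short Nhp2 and Rrp9 to 0.01 for the long Polr1a, and 34 lie above the dashed line, Noc3l (-0.14) being the exception.

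A further 105 genes of the pathway, from RNA polymerase I subunits to late assembly factors, gave a similar picture, again with 0 called in limma. An unadjusted p under 0.05 was reached by 0 of them, beside 3.99% of all genes tested, and in the blocked fit by 4, beside 13.9%. Of these 105, 81 had a higher mean in MaeaCsf1r-Cre and 24 a lower one, with a median log2 fold change of 0.06, and MaeaCsf1r-Cre replicate 1 was the highest library in 81 (77.1%). Without that library, 32 were higher and the median was -0.06. Groups did not overlap in 7, all higher in MaeaCsf1r-Cre, beside 8.55% of all genes tested in either direction and 323 of 12955 higher. The 3 higher genes of smallest unadjusted p were Eif6, the factor that keeps the new large subunit from joining early (means 125 and 150 CPM), and the small subunit factors Wdr46 (54.0 and 65.3 CPM) and Tbl3 (99.3 and 124 CPM). The 3 lower ones were Nol8 (21.1 and 17.2 CPM), Ttf1, the terminator of RNA polymerase I (18.6 and 16.1 CPM), and Taf1a, of its promoter selectivity factor (5.78 and 4.70 CPM). All 6 had an adjusted p of 0.967. In the 10 further RNA polymerase I genes, MaeaCsf1r-Cre replicate 1 was highest in 3 of 10, against 38 of 47 small subunit and 40 of 48 large subunit genes. It was highest in 6 of the 6 members of the RNA polymerase I group and in 25.4% of all genes tested. The difference between these sets was not tested.

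MYC family genes, known activators of this programme, had other highest libraries than the members. Myc had 182, 111 and 88.2 CPM in the controls and 145, 87.4 and 120 CPM in the MaeaCsf1r-Cre libraries, and control replicate 1, not MaeaCsf1r-Cre replicate 1, was its highest library. Like most members, it was highest in replicate 1 within each group, and 75.6% of its sum of squares lay between replicate numbers. Mycn had 133, 156 and 192 CPM in the controls and 74.1, 128 and 138 CPM in the MaeaCsf1r-Cre libraries. It was lowest in the library where the members were highest, and its log2 fold change was -0.53 ± 0.25 (SE; adjusted p = 0.967, and 0.217 in the blocked fit). The 6 members with an E-box in the window had log2 fold changes from 0.01 to 0.10, with a median of 0.06. All of them but Nop2 were among the 17 members longer than 2804 bases, whose median was also 0.06. A link of these values to the MYC family was not tested.

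Other gene lists also differed from library to library, with or against the members, and their part in the level of the nucleolar genes was not tested. The 20 cycling genes had higher means in MaeaCsf1r-Cre in 20 of 20, none called, with MaeaCsf1r-Cre replicate 1 highest in 15. Their median log2 fold change was 0.11. Mki67, which marks cells out of quiescence, had the largest of the list, 0.32, and was highest in MaeaCsf1r-Cre replicate 3. It had 120, 125 and 149 CPM in the controls and 175, 141 and 177 CPM in the MaeaCsf1r-Cre libraries. The median difference in replicates 1 to 3 was 0.18, 0.02 and 0.26 for cycling genes and 0.28, 0.06 and -0.02 for the nucleolar genes. HSC markers ran the other way: 8 of 10 were lowest in MaeaCsf1r-Cre replicate 1, and their summed level was 683 to 1272 CPM in MaeaCsf1r-Cre and 1002 to 1566 CPM in controls, with the lowest of each group in replicate 1. The summed erythroid markers were 4209 CPM in control replicate 1 and 4529 CPM in MaeaCsf1r-Cre replicate 1, and between 958 and 2130 CPM in the other 4 libraries, nearly all of it Car1, Klf1, Ermap and Epor, while Hbb-bt, the highest globin gene, reached 40.6 CPM and Alas2 0.839 CPM. In sorted pools, more cells of a state and more RNA per cell cannot be told apart. Macrophage markers summed to 20.7 to 69.1 CPM in controls and 3.52 to 37.8 CPM in MaeaCsf1r-Cre, where C1qa, C1qb and C1qc were at most 0.474 CPM, and the lowest sum was in MaeaCsf1r-Cre replicate 1.

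**Figure D5:**
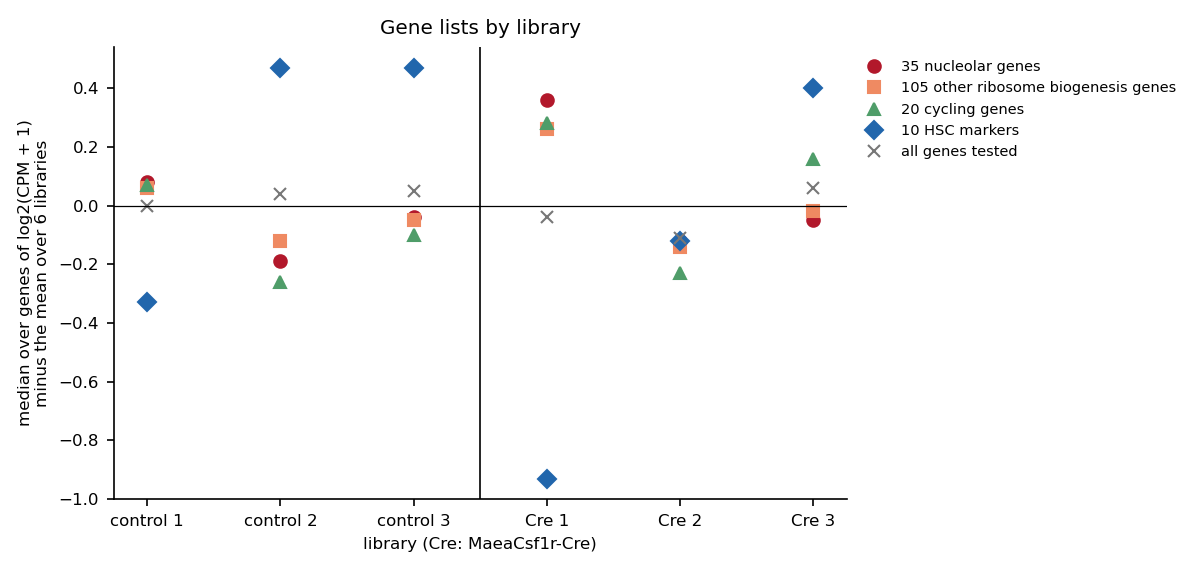
For each gene list and library the plot gives the median over genes of log2(CPM + 1) minus the gene's mean over the 6 libraries. The nucleolar, other ribosome biogenesis and cycling genes are highest in MaeaCsf1r-Cre replicate 1 (0.36, 0.26 and 0.28), where the HSC markers are lowest (-0.93).

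Since the kit does not keep strand, reads where a member overlaps a gene of the opposite strand cannot be assigned to either. Shared exon bases were few: 5 for Nop56 with Idh3b, 15 for Gnl3 with Pbrm1, 44 for Nhp2 with Rmnd5b, 45 for Dkc1 with Mpp1 and 131 for Mybbp1a with Spns2, the partners at 46.7 CPM or more. The longest overlap, 598 bases of Noc2l with Samd11, involved a partner at no more than 2.96 CPM.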

How the data were processed

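The authors sequenced SMART-Seq v4 and Nextera XT libraries, which keep no strand, on 1 NextSeq500 flow cell. They trimmed reads with Trim Galore, aligned them to mm10 with STAR 2.5.3a, counted them on Ensembl transcripts in Partek Flow and deposited counts scaled to CPM (reads per 1000000) with 0.0001 added, which was subtracted here. Whole reads could not be recovered (73.3 to 75.2% of low values were whole within 0.02), so no count test was run. The 12955 genes that reached 1 CPM in 3 or more libraries were fitted on log2(CPM + 1) with limma 3.58.1 (trend, R 4.3.3), two-sided, with Benjamini-Hochberg adjustment over all of them and a threshold of 0.05. Fold changes on this scale understate those of low genes.

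Deviations of same-numbered libraries from their group means correlated at 0.627, 0.523 and 0.397 over genes, and those of other pairs at -0.459 to -0.0538. A fit with the replicate number as a block was therefore run as well. On simulated data with 200 of 12955 genes changed 4-fold, the fit recovered 178 with 6 false calls. The libraries were drawn independently there, without the correlation of same-numbered libraries, and only better expressed genes were changed. Differences as small as those of the members were not simulated, so their recovery is not known. Transcript lengths are those of the GENCODE M21 principal transcript (for several, the median length). Promoter windows came from RefSeq.

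The 35 members and the gene lists were chosen with earlier results of these data known. Values in every library are given for the member with the largest CPM per kb in each role group and the largest and smallest fold change, and group means for the rest. Alternatives were another pseudocount, no or a stricter filter, rescaling, quantile normalization, no trend, the block, a length correction and leaving out each library. Of 106 further pathway genes, Riok2 had no row.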

Additional observations from a re-analysis of the deposited data

How the results depend on the processing

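In every setting with a test (the length correction gave none), 0 of the 35 nucleolar genes and 0 of the 105 other pathway genes were called. Over all genes tested, 0 or 1 was called in each of these settings, so these zeros say little about the members themselves. With each library left out in turn, 12 to 35 nucleolar genes were higher in MaeaCsf1r-Cre and their median log2 fold change ran from -0.05 to 0.20, and for the other pathway genes the number higher ran from 32 to 96 and the median from -0.06 to 0.15; the lowest values were all without MaeaCsf1r-Cre replicate 1. Single genes ran from 0.09 to 0.39 (Rrp9), 0.02 to 0.27 (Npm1), 0.05 to 0.27 (Noc2l), -0.30 to 0.05 (Noc3l), -0.09 to 0.16 (Nop10), -0.03 to 0.26 (Nop56), -0.07 to 0.11 (Ubtf) and -0.15 to 0.26 (Wdr43). With both libraries of replicate 1 left out, a setting chosen after seeing the data, 20 nucleolar genes were higher with a median of 0.02, 50 other pathway genes were higher with a median of -0.01 and 1 of them had an unadjusted p under 0.05, and Nop10, Ubtf and Wdr43 stood at -0.03, -0.05 and -0.05. With the replicate block, 2 nucleolar and 4 other pathway genes had an unadjusted p under 0.05, against 0 and 0 without it, and the block changed no call; with quantile normalization, 2 other pathway genes did. The causes were not tested. Other scalings and filters left 34 or 35 nucleolar genes higher. Their median was 0.16 with median ratio rescaling and 0.21 with the length correction, and that of the other pathway genes 0.12 and 0.17, with 94 of them higher in each, while the median of all genes moved from -0.06 to 0.00 and 0.03. With 3 libraries per group, standard errors near 0.17 limited what could be detected.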
